A study of Mus musculus with 17 samples.

Results

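The genes described here supply glycerol 3-phosphate, the backbone onto which fat cells esterify fatty acids, or carry glycerol itself. The list held 8 genes (Pck1, Pck2, Gpd1, Gpd1l, Gpd2, Gk, Aqp7 and Aqp3), and its members were taken as every non-control probe whose gene name on the array is a listed symbol, or Gyk for Gk. 7 of the 8 genes matched, with 15 probes of the 41174 on the array, and 12 of these 15 passed the filter on dim probes. Pck1 was not analysed here. The RNA came from epididymal white adipose tissue (a visceral fat depot attached to the epididymis) of adult male wildtype C57BL/6J mice fed for 13 weeks on purified diets with 30 energy% fat. Both diets were thus rich in fat, and the labels give the carbohydrate as what differed: its glycemic index was low in 8 mice (LGI) and high in 9 mice (HGI). The design text speaks of 19 arrays, and 2 of them failed the authors' quality control, leaving 17. Each mouse was labelled with Cy5 and hybridised against a Cy3 pool, which the labels describe as a pool of all samples. A value below is thus the log2 ratio of a mouse to that pool, and a difference of 1 on that scale is a doubling. The labels number the mice and say no more of how they were kept, so the p-values rest on the spread among these samples, which may in part be technical.

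Fat cells lack a ready supply of glycerol 3-phosphate from the glycerol that lipolysis frees, because white fat has little glycerol kinase. They make it from glucose through dihydroxyacetone phosphate, which the cytosolic dehydrogenase Gpd1 reduces, or from pyruvate and lactate through phosphoenolpyruvate, the route called glyceroneogenesis, in which phosphoenolpyruvate carboxykinase (Pck1 in the cytosol, Pck2 in mitochondria) takes the committed step. Gpd2, on the outer face of the inner mitochondrial membrane, turns glycerol 3-phosphate back into dihydroxyacetone phosphate and passes the electrons to the respiratory chain, and the aquaglyceroporin Aqp7 lets freed glycerol leave the fat cell.

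Promoter sequences are given for the 3 genes on which the description turns: Gpd2, whose probes differed most between the diets; Pck2, the mitochondrial carboxykinase, whose highest values lay in a pair of arrays that stood apart; and Aqp7, the glycerol channel of fat cells. Each is the 250 bases before the first RefSeq start of the gene in build GRCm38.p6, read 5′ to 3′ on the gene's strand, with matches to the motifs searched in capitals. The Gpd2 stretch is chr2:57237428-57237677 on the plus strand, the Pck2 stretch chr14:55540016-55540265 on the plus strand and the Aqp7 stretch chr4:41048137-41048386 on the minus strand.
Gpd2: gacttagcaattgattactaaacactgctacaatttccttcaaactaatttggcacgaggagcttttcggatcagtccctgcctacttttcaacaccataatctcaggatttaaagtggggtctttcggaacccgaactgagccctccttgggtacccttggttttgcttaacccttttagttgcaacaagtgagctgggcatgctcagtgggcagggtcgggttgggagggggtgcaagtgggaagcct
Pck2: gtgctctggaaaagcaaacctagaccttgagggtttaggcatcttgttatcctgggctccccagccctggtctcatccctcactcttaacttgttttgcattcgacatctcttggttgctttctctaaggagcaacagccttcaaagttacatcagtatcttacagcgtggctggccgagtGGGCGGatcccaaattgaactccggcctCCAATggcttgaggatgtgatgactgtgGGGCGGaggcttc
Aqp7: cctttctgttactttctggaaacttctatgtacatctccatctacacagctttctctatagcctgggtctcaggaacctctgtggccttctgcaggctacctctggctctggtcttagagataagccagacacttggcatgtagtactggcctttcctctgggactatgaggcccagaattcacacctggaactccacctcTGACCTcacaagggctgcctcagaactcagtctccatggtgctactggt
The search covered both strands, except that the TATA box was sought on the gene's strand alone, also for its share of promoters. The core hexamer of nuclear receptor sites was spelled AGGTCA and the E-box of helix-loop-helix factors CACGTG. The cAMP response element was spelled TGACGTCA, and the amino acid response element either TGATGCAA or, in its other form, TGATGAAA. The remaining motifs were the CCAAT box, the GC box of Sp1 (spelled GGGCGG) and the TATA box (spelled TATAAA). The Aqp7 stretch held the nuclear receptor hexamer as its reverse complement, 49 to 44 bases before the start, and 14.02% of 32851 RefSeq promoters of the same length held one. The Pck2 stretch held a CCAAT box 41 to 37 bases before the start, a motif found in 33.85% of promoters, and GC boxes 69 to 64 and 13 to 8 bases before it, found in 32.74%. RefSeq has a further start for Aqp7, whose 250 bases held the hexamer 223 to 218 and 101 to 96 bases before it. These bases overlap the printed stretch, and the match at 223 to 218 is the site already given at 49 to 44. The printed Gpd2 stretch held none of the motifs, while the 250 bases before a further Gpd2 start held 1 GC box, 134 to 129 bases before it. Of the other motifs, the E-box was found in 6.02% of promoters, the TATA box in 7.59%, the amino acid response element in 1.67% and the cAMP response element in 1.55%.

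HGI 9 and HGI 10 stood apart from the other arrays. Their log ratios over all tested probes correlated with each other at r = 0.787 and with the others at -0.04 to 0.15, against 0.34 to 0.81 among the others. In these arrays the mean log ratio of the 7 seminal vesicle markers was 1.59 and 1.58, against -4.30 to -3.93 in the other mice, and the mean of the epithelial markers was 0.64 and 0.49. LGI 9 was also high in the mean of the 8 epithelial markers (0.37, against -1.40 to -0.73 in the remaining mice), with its seminal vesicle markers at -4.08. These 8 were Krt18, Krt8, Cldn7, Krt5, Cdh1, Epcam, Krt14 and Cldn4. In LGI 9, Krt5 (-0.49) and Krt14 (-0.55) were not high, the medians of the remaining mice being -0.38 and -0.32. Krt14 was not high in HGI 9 (-0.48) or HGI 10 (-0.30) either. Cdh1, Epcam and Cldn4 were well above background on only 7, 7 and 4 arrays. All 6 adipocyte markers (Adipoq, Plin1, Cidec, Fabp4, Lep and Retn) were well above background on all 17 arrays. Ucp1 of brown fat, Crisp1 of the epididymis, Myh4 of muscle and Apoa2 and Ttr of liver were not well above background on any. Other markers of these tissues were. Lcn5, Lcn8 and Adam7 of the epididymis, Cidea, Cox7a1 and Cox8b of brown fat and Acta1 of muscle were so on all 17 arrays. Alb of liver was so on 14, and Defb15 of the epididymis on 12. The mean log ratio of the 6 epididymis markers was -3.09 to -2.49 in LGI and -3.13 to -2.77 in HGI, far below the pool in every mouse. A log ratio of 0 is therefore not the average of these mice for every gene, and the cause was not tested. Acta1 was at 1.39 in HGI 9 and 1.04 in HGI 10. The arrays also fell by brightness and scan time into the first 8 scanned (median Cy5 spot intensity 165 to 185) and the later 9 (127 to 155), each with mice of both diets. No spot of any of the 15 probes was saturated in either dye on any array. In tissue pieces of many cells, fewer cells of a type and less RNA per cell cannot be told apart.

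No member passed the test. None of the 12 probes tested had a Benjamini-Hochberg adjusted p under 0.05 in limma, as none of the 25518 probes on the array did (0% called, the smallest adjusted p being 0.189). Among the members, 7 probes were higher and 5 lower in HGI, where 50.9% of all tested probes were higher and 49.1% lower. At an unadjusted p under 0.05, 2 of the 12 were lower, both of them probes of Gpd2, and 0 were higher, where 4.02% of all tested probes (1027) were lower and 3.62% (924) higher. The median difference, HGI minus LGI, was 0.028 over the 12 member probes and 0.0018 over all tested probes. Without HGI 9 and HGI 10 the same 2 Gpd2 probes were lower at an unadjusted p under 0.05, with 2.75% of all probes lower and 4.71% higher.

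**Figure D1:**
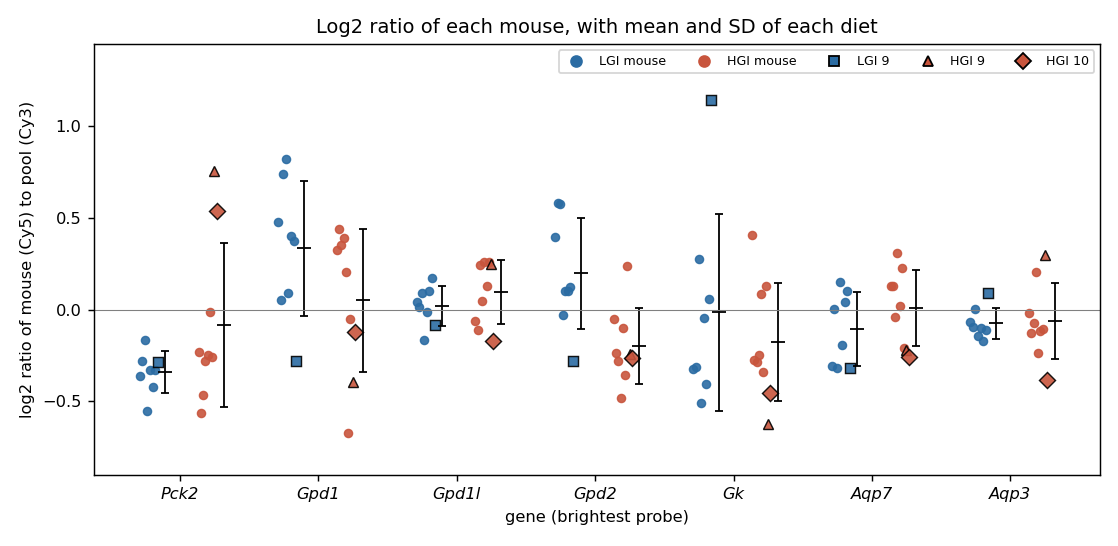
Log2 ratio of each mouse to the pool (vertical axis) for the brightest probe of each of the 7 genes, LGI mice in blue and HGI mice in red, with the mean and SD of each diet as black bars. The Pck2 values of HGI 9 (0.76) and HGI 10 (0.54) and the Gk value of LGI 9 (1.15) lie away from the rest of their groups, and the Gpd2 values of the HGI mice lie mostly below those of the LGI mice.

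Gpd2, the mitochondrial glycerol 3-phosphate dehydrogenase, was measured by probe 1 (A_51_P342481) and probe 2 (A_52_P373938). On probe 1 the LGI mice ran from -0.28 over a median of 0.11 to 0.58, and the HGI mice from -0.48 over a median of -0.24 to 0.24. The LGI values were highest in LGI 2 (0.58), LGI 4 (0.58) and LGI 1 (0.40). 8 of the 9 HGI mice were below the LGI median, the exception being HGI 7, which was above 5 of the LGI mice. LGI 9 was as low as the HGI mice, and the groups overlapped at both ends. On probe 2 the LGI mice ran from -0.10 over 0.25 to 0.84 and the HGI mice from -0.34 over -0.024 to 0.38. LGI 1, LGI 2 and LGI 4 were again the highest and LGI 9 the lowest of its group, and 8 of 9 HGI mice were below the LGI median, here all but HGI 10.

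The mean of probe 1 was 0.20 ± 0.30 (SD, n = 8) in LGI and -0.20 ± 0.21 (SD, n = 9) in HGI, a difference of -0.40 ± 0.11 (SE; 95% interval -0.63 to -0.16), or 0.76 times the LGI level. Its unadjusted p in limma was 0.00212 and its adjusted p 0.559, so the difference did not pass the test over all probes. Probe 2 differed by -0.37 ± 0.12 (SE; interval -0.62 to -0.12), with an unadjusted p of 0.00613 and the same adjusted p of 0.559. Ordered by p, the 2 probes stood at places 92 and 264 of 25518. The difference was also present without HGI 9 and HGI 10, at -0.38 ± 0.12 on probe 1 and -0.42 ± 0.12 on probe 2. It was negative in both scan groups: -0.30 ± 0.16 among the first 8 and -0.49 ± 0.15 among the later 9 on probe 1, and -0.26 ± 0.15 and -0.48 ± 0.17 on probe 2. Leaving out any 1 mouse gave -0.46 to -0.34 on probe 1 and -0.43 to -0.30 on probe 2. With the mean of the adipocyte markers as a covariate the difference was -0.40 on probe 1 and -0.38 on probe 2. The authors' deposited values gave a smaller difference of -0.25 on probe 1 and -0.18 on probe 2.

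**Figure D2:**
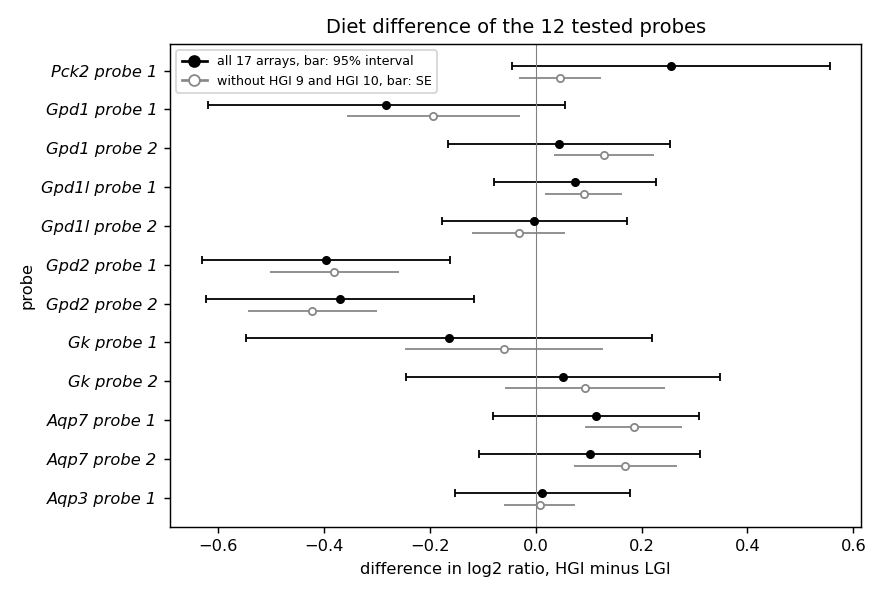
Difference in log2 ratio, HGI minus LGI (horizontal axis), of the 12 tested probes, with black points and 95% intervals for all 17 arrays and open grey points with the SE without HGI 9 and HGI 10. Only the intervals of the Gpd2 probes (-0.63 to -0.16 and -0.62 to -0.12) leave out 0, and the Pck2 point moves from 0.26 to 0.046.

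Gpd1, the cytosolic dehydrogenase that makes glycerol 3-phosphate, was measured by probe 1 (A_52_P16419) and probe 2 (A_51_P293853). Their estimated differences had opposite signs, each with an interval that held 0. Probe 2 was much dimmer, at a mean log2 intensity of 7.22 against 12.89 for probe 1. On probe 1 the LGI mice ran from -0.28 over a median of 0.39 to 0.82 and the HGI mice from -0.67 over 0.21 to 0.44. 7 of 9 HGI mice were below the LGI median, and the lowest mouse of all was HGI 6, but LGI 9 was below 0 as 4 HGI mice were, and the groups overlapped widely. On probe 2 the LGI mice ran from -0.38 over -0.039 to 0.23 and the HGI mice from -0.32 over 0.13 to 0.28, with 5 of 9 HGI mice above the LGI median. Probe 1 differed by -0.28 ± 0.16 (SE; interval -0.62 to 0.055; unadjusted p 0.096, adjusted p 0.717, limma) and probe 2 by 0.044 ± 0.10 (SE; interval -0.17 to 0.25; adjusted p 0.94, limma). Without HGI 9 and HGI 10, probe 1 was at -0.19 ± 0.16 and probe 2 at 0.13 ± 0.095, and with array weights they were at -0.14 ± 0.14 and 0.14 ± 0.087. Without LGI 9, probe 1 was at -0.37 ± 0.15 and probe 2 at -0.0038 ± 0.099. None of these passed the adjusted threshold in limma.

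The Gpd1 difference on probe 1 was of opposite sign in the scan groups. It was 0.055 ± 0.18 (SE) among the first 8 and -0.61 ± 0.20 among the later 9. The test of that difference between scan groups gave an unadjusted p of 0.0375 and a Benjamini-Hochberg adjusted p of 1.00 over all probes, so it did not pass. In the later arrays all 4 LGI mice were above 0.37 while HGI 6, HGI 10 and HGI 7 were below 0. HGI 2 (0.44) and HGI 4 (0.39) of the later arrays lay within the range of the LGI mice. The same test on Gpd2 gave unadjusted p values of 0.426 and 0.389.

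**Figure D3:**
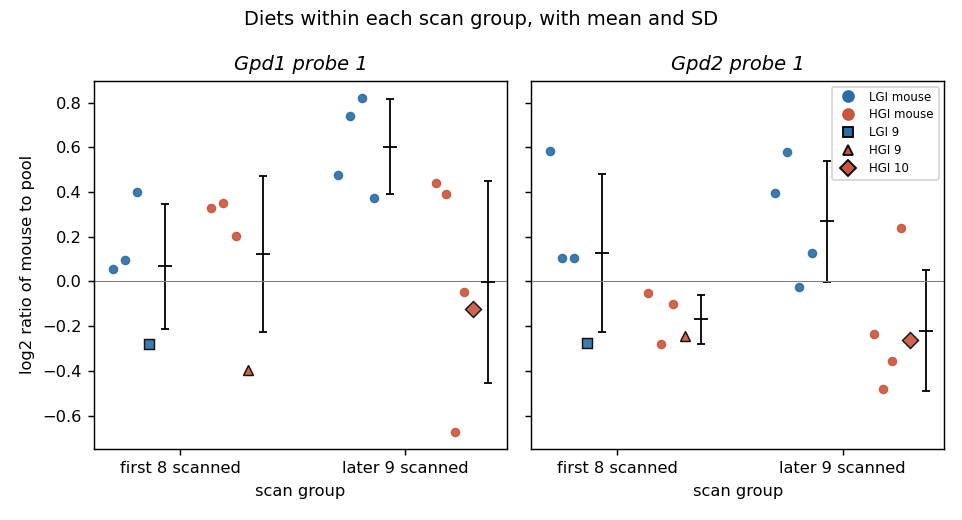
Log2 ratio to the pool (vertical axis) of Gpd1 probe 1 (left) and Gpd2 probe 1 (right) in the first 8 and the later 9 arrays scanned, LGI in blue and HGI in red, with mean and SD. The Gpd1 difference is 0.055 on the left and -0.61 on the right of its panel, and the Gpd2 difference is -0.30 and -0.49.

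Across the 17 mice the probes of 1 gene followed each other for Gpd1, Gpd2 and Aqp7, in a family of 11 correlations chosen after the values were seen (permutation tests, two-sided, Benjamini-Hochberg over the 11). All ratios share the pool and the array. For Gpd2, r was 0.836 (permutation p = 5e-05, adjusted p = 0.00055) and rho 0.828 (permutation p = 8e-05, adjusted p = 0.00088). It was 0.759 without the 2 mice farthest from the median. Within scan groups it was 0.963 (first 8) and 0.79 (later 9), the latter not past the threshold (permutation, adjusted p = 0.112). Within LGI it was 0.872 (permutation, adjusted p = 0.032), and within HGI it was 0.507 and did not pass (permutation, adjusted p = 0.52). For Gpd1, r was 0.704 (permutation p = 0.00136, adjusted p = 0.00748) and rho 0.689 (permutation p = 0.00309, adjusted p = 0.011). Without the 2 farthest mice the Gpd1 value was 0.66 (permutation, adjusted p = 0.041), and within scan groups it was 0.919 (first 8) and 0.628 (later 9, permutation, adjusted p = 0.252). Within HGI it was 0.863 (permutation, adjusted p = 0.043) and within LGI 0.716 (permutation, adjusted p = 0.122). Without HGI 9 and HGI 10, r was 0.629 (permutation, adjusted p = 0.038) and rho 0.575 (permutation, adjusted p = 0.101), and without LGI 9 as well r was 0.543 and did not pass (permutation, adjusted p = 0.102). For Aqp7, r was 0.692 (permutation p = 0.00289, adjusted p = 0.011) and rho 0.708 (permutation p = 0.002, adjusted p = 0.011). The Aqp7 value was 0.582 without the farthest 2 (adjusted p = 0.091 by permutation, no longer past the threshold), and 0.668 and 0.762 within the scan groups, where it did not pass either (permutation, adjusted p = 0.108 and 0.112). It was 0.891 within LGI (permutation, adjusted p = 0.032) and 0.467 within HGI (permutation, adjusted p = 0.52). The probes of Gpd1l did not pass, at r = 0.328 (permutation p = 0.196, adjusted p = 0.309) and rho 0.292 (permutation p = 0.254, adjusted p = 0.399).

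**Figure D4:**
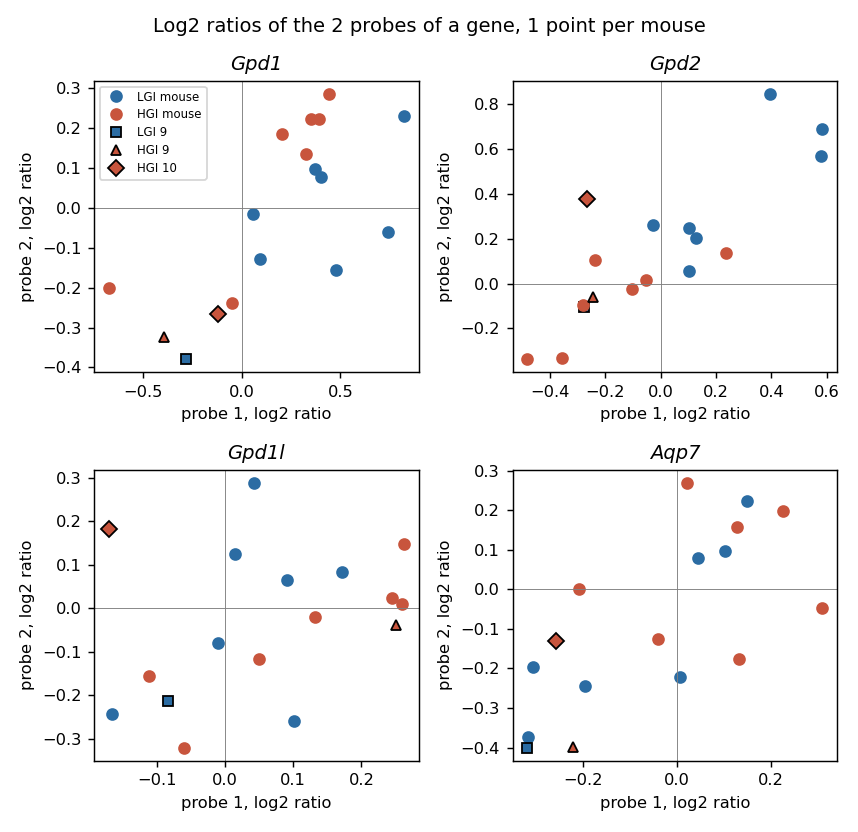
Log2 ratio on probe 1 (horizontal axis) against probe 2 (vertical axis) of Gpd1, Gpd2, Gpd1l and Aqp7, 1 point per mouse, LGI in blue and HGI in red. The points of Gpd2 lie near a line (r = 0.836), and for Gpd1 5 HGI mice and 3 LGI mice lie above 0 on both probes.

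Gpd1l, a relative of Gpd1 with the same kind of activity, was similar in both diets within its error. On probe 1 the LGI mice lay between -0.16 and 0.17 (median 0.029) and the HGI mice between -0.17 and 0.26 (median 0.13), and the difference was 0.075 ± 0.074 (SE; interval -0.078 to 0.23). On probe 2 the LGI mice lay between -0.26 and 0.29 and the HGI mice between -0.32 and 0.18, and the difference was -0.0027 ± 0.084 (SE; interval -0.18 to 0.17). The adjusted p values were 0.833 and 0.998 in limma. The differences were 0.091 and -0.032 without HGI 9 and HGI 10.

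Pck2, the mitochondrial phosphoenolpyruvate carboxykinase, had 1 probe (A_52_P21659). The LGI mice ran from -0.55 over a median of -0.33 to -0.17, and the HGI mice from -0.57 over -0.25 to 0.76. The 2 highest HGI values were those of HGI 9 (0.76) and HGI 10 (0.54), and the next was HGI 6 at -0.014, so that the other 7 HGI mice covered much of the LGI range. The difference over all mice was 0.26 ± 0.14 (SE; interval -0.044 to 0.56; adjusted p 0.711, limma). It was 0.046 ± 0.077 without HGI 9 and HGI 10, the arrays in which the seminal vesicle markers stood at 1.59 and 1.58. The part of these markers in the Pck2 values was not tested.

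Over the 15 mice other than HGI 9 and HGI 10, Pck2 and Gpd1 (probe 1) ran against each other, at r = -0.607 (permutation p = 0.018, adjusted p = 0.049) and rho -0.489 (permutation p = 0.066, adjusted p = 0.145). Without LGI 9 as well, r was -0.63 and did not pass (permutation, adjusted p = 0.08). Over all 17 mice r was -0.61 (permutation p = 0.011, adjusted p = 0.03). Without the 2 of the 17 farthest from the Gpd1 median, HGI 6 and HGI 9, it was -0.478 (permutation p = 0.076, adjusted p = 0.196). The relation over 17 mice thus rests in part on those mice. Within scan groups, HGI 9 and HGI 10 included, it was -0.723 in the first 8 (permutation, adjusted p = 0.035) and -0.593 in the later 9, which did not pass (permutation, adjusted p = 0.269). Neither diet alone passed, with -0.327 in LGI (permutation, adjusted p = 0.524) and -0.68 in HGI (permutation, adjusted p = 0.221). The other 5 pairs of Gpd1 with a member (Gpd1l, Gpd2, Gk, Aqp7 and Aqp3) had r between -0.213 and 0.378 over the 17 mice, and none passed, with permutation p values adjusted over the 11 between 0.245 and 0.805. In the first 8 arrays alone, Gpd1 with Aqp7 was at 0.823 and with Aqp3 at -0.806 (permutation, adjusted p = 0.033 for both), while in the later 9 they were at -0.113 and 0.324 and did not pass (permutation, adjusted p = 0.776 and 0.582).

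Gk, glycerol kinase, which returns free glycerol to glycerol 3-phosphate, was near the limit of detection. Probe 1 exceeded background clearly in 7 LGI and 7 HGI mice, and probe 2 in 3 LGI and 7 HGI mice. Probe 3 was above it on 2 LGI arrays and 1 HGI array, and probes 4 and 5 on none, so these were not tested and have no measured level. LGI 9 was the highest array on probes 1, 2 and 3, at 1.15, 0.83 and 0.86, where the other LGI mice reached at most 0.28, -0.15 and -0.072. On probes 4 and 5, which were not well above background, LGI 9 was at -0.029 and -0.17, within the range of the others.

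The LGI mice other than LGI 9 lay between -0.51 and 0.28 on Gk probe 1, and the HGI mice between -0.62 and 0.41. The difference was -0.16 ± 0.18 (SE; interval -0.55 to 0.22; adjusted p 0.859, limma) on probe 1 and 0.052 ± 0.14 (SE; interval -0.24 to 0.35; adjusted p 0.952, limma) on probe 2. On probe 1, 3 of 9 HGI mice were above the LGI median, and on probe 2 all 9 were. The differences without HGI 9 and HGI 10 were -0.061 and 0.093. Without LGI 9 alone they were 0.0020 and 0.20, the latter with an unadjusted p of 0.034 and an adjusted p of 0.681 in limma. Without HGI 9, HGI 10 and LGI 9, a setting chosen after seeing the data, probe 2 was at 0.24 ± 0.090 (unadjusted p 0.0149, adjusted p 0.653, limma). Only 2 of the 7 LGI mice left were well above background on it. Probe 2 had passed the filter mainly through the HGI mice (7, against 3 LGI mice). Its p-values and the place of its HGI mice therefore cannot show a difference between the diets. The mean of the epithelial markers was high in LGI 9 as well. In HGI 9 and HGI 10 that mean was higher still, but not every marker was. Epcam was at 0.36 and 0.16 there, against 0.97 in LGI 9, and Krt8 at 0.75 and 0.69, against 1.14. Gk probes 1 and 2 were not well above background in HGI 9 and HGI 10. The part of these markers in the Gk values was not tested. Between probes 1 and 2, r was 0.659 over all mice (permutation p = 0.017, adjusted p = 0.038) and rho 0.412 (permutation p = 0.1, adjusted p = 0.221), but r was 0.071 without the 2 mice farthest from the median (LGI 9 among them), so the relation rests on those.

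**Figure D5:**
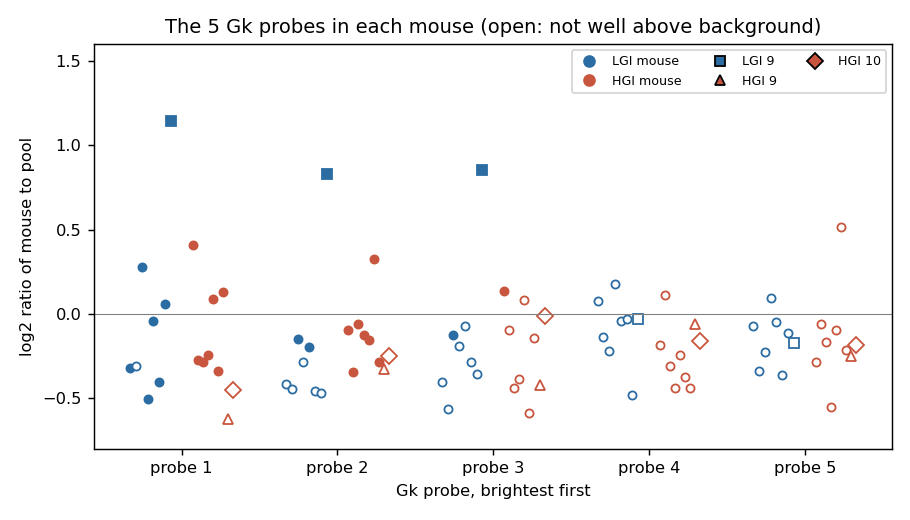
Log2 ratio to the pool (vertical axis) of the 5 Gk probes in each mouse, LGI in blue and HGI in red, with filled points where the spot was well above background and open points where it was not. LGI 9, the square, is high on probes 1 to 3 (1.15, 0.83 and 0.86) and not on probes 4 and 5.

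Aqp7, the channel through which glycerol leaves fat cells, was well above background on all arrays with both probes. On probe 1 the LGI mice ran from -0.32 over a median of -0.094 to 0.15 and the HGI mice from -0.26 over 0.023 to 0.31. On probe 2 the LGI mice ran from -0.40 over -0.21 to 0.22 and the HGI mice from -0.40 over -0.048 to 0.27. 6 of 9 HGI mice on probe 1 and 8 of 9 on probe 2 were above the LGI median, with wide overlap. The differences were 0.11 ± 0.094 (SE; interval -0.081 to 0.31; adjusted p 0.805, limma) and 0.10 ± 0.10 (SE; interval -0.11 to 0.31; adjusted p 0.834, limma). Without HGI 9 and HGI 10 they were 0.19 ± 0.091 and 0.17 ± 0.098, with unadjusted p values of 0.0554 and 0.0976.

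Aqp3, a further aquaglyceroporin, common in epithelia, was dimmer, clearly over background in 7 LGI and 7 HGI mice. The LGI mice lay between -0.17 and 0.092 (median -0.097), and the HGI mice spread on both sides of them, from -0.39 in HGI 10 to 0.30 in HGI 9 (median -0.10). The difference was 0.013 ± 0.079 (SE; interval -0.15 to 0.18; adjusted p 0.983, limma), and 0.0076 without HGI 9 and HGI 10.

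The genes whose log ratios followed a member most closely were taken over 14241 named genes with 1 probe each, as a description across the 17 mice. For Gpd1 they were Pacc1, Idh1, Agpat2, Lamtor1 and Slc2a4, with r from 0.912 to 0.883. Agpat2 adds the second acyl chain in triglyceride synthesis and Slc2a4 is the insulin-responsive glucose transporter. For Aqp7 they were Tmed5, Atp6v1e1, Cd59a, Bcl2l13 and H2ac10, with r from 0.882 to 0.851. For Gpd2, a gene added to this search after its values were seen, they were Tkt, Uqcrc2, Uqcrfs1, Atp5c1 and Acly, with r from 0.917 to 0.879. Uqcrc2 and Uqcrfs1 are subunits of respiratory complex III, Atp5c1 of ATP synthase, Tkt is transketolase and Acly is ATP citrate lyase. For Gk, added in the same way, they were Sec14l4, Celsr1, Enkur, Clic6 and Dnaja4, with r from 0.954 to 0.936, and for Pck2 they were Zfp846, Ndel1, Slc25a29, Slc23a3 and Drd5, with r from 0.967 to 0.957. The values for Pck2 were 0.67 to 0.80 without HGI 9 and HGI 10, while those for Gk were 0.85 to 0.92 without these and LGI 9.

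The steps around these genes were read from lists of other genes, 1 probe each, and none of their members passed the test in limma (0 adjusted p under 0.05 in each list). Of all tested probes, 50.9% were higher and 49.1% lower, which is the share to set beside the counts below. In the list for the route from pyruvate to phosphoenolpyruvate, which also held the Pdk kinases, 7 of 17 genes were higher and 10 lower. Their median was -0.0081. The 2 with an unadjusted p under 0.05 were both lower, against 4.02% of all tested probes: Mdh2, mitochondrial malate dehydrogenase, at -0.16 ± 0.064 (SE), and Pdk2, a pyruvate dehydrogenase kinase, at -0.17 ± 0.070. Without HGI 9 and HGI 10, 8 of the 17 were higher and 9 lower, with a median of -0.053. Mdh2 was then at -0.15 and Pdk2 at -0.16 (unadjusted p 0.043 and 0.044 in limma), where 2.75% of all tested probes were lower at that threshold. Of the triose phosphate steps, 3 of 6 were higher and 3 lower, with Aldoa, an aldolase, at -0.11 ± 0.093 and Tpi1, triose phosphate isomerase, at 0.13 ± 0.11. Aldoa was at -0.064 and Tpi1 at 0.20 without HGI 9 and HGI 10. Of the genes that use or remove glycerol 3-phosphate, 2 of 5 were higher, and the acyltransferases Gpat3 and Gpat2 were at -0.25 ± 0.15 and -0.11 ± 0.074. In the mice other than HGI 9 and HGI 10, 1 of 5 was higher and Gpat2 was at -0.063.

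Of the lipolysis genes that set glycerol free, 1 of 4 was higher. Pnpla2, adipose triglyceride lipase, was at -0.20 ± 0.096 (SE; unadjusted p 0.048) and Lipe, hormone-sensitive lipase, at -0.099 ± 0.066. The median of the 4 was -0.064. In the mice other than HGI 9 and HGI 10, 2 of 4 were higher, with a median of -0.0042, and Lipe was at -0.050. Of the other aquaglyceroporins and kinase relatives, 2 of 5 were tested, Aqp11 at -0.076 ± 0.079 and Aqp9 at -0.014 ± 0.063 (-0.043 and -0.024 without HGI 9 and HGI 10). Of 12 factors known to act on the Pck1 gene, 1 was higher and 11 lower, with a median of -0.094, where 49.1% of all tested probes were lower and their median was 0.0018. 3 of these had an unadjusted p under 0.05, where 4.02% of all tested probes were lower at that p: Srebf1, a sterol and lipid synthesis factor, at -0.36 ± 0.14, Cebpa, an adipocyte factor, at -0.24 ± 0.10, and Hsd11b1, which makes active glucocorticoid, at -0.35 ± 0.16. Their adjusted p values in limma were 0.587, 0.602 and 0.633. Without HGI 9 and HGI 10, 9 of these 12 were lower, with a median of -0.065, and 2 had an unadjusted p under 0.05 (Srebf1 at -0.34 and Hsd11b1 at -0.38). In that setting 2.75% of all tested probes were lower at that p, and the median of all was -5.6e-05. Pnpla2 was at -0.18 without HGI 9 and HGI 10, with an unadjusted p of 0.084 in limma.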

How the data were processed

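Each of 17 two-colour Agilent arrays compared 1 mouse (Cy5) with a pool of all samples (Cy3), per the labels. The scanner files hold mean spot and median background intensities and processed signal intensities, made with Agilent Feature Extraction, per the file headers. The authors also deposited a table of log2 values, with scaling and centring unstated. The genome build of the probes is not given in the sources used here.

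Intensities were background-corrected with normexp (offset 50) and loess-normalised within each array in limma 3.58.1 under R 4.3.3, with control and outlier spots at weight 0. Spots of 1 probe were averaged, and probes of 1 gene were kept apart and numbered from the brightest. Tested probes were those with a Cy5 spot well above background in 8 or more mice. HGI and LGI were compared with lmFit and eBayes, with no covariate, and p-values adjusted by Benjamini-Hochberg over all tested probes, threshold 0.05. The method was tested on simulated data. Correlations used 1e+05 permutations. The relations planned for Pck1 were computed for Gpd1 and for probes of 1 gene instead. The named genes are all members, the 2 genes of smallest p in each list, and the 5 most correlated genes of a member; the third regulator and Gpd2, Gk and Pck2 in the correlation search were added after seeing the values. The members and lists were chosen with earlier results of these data known. Motifs were matched to RefSeq promoters of GRCm38.p6. Alternatives covered background correction, normalisation, the Cy5 channel alone, filters, weights, scan group, replicate number and the arrays left out. The number of arrays limits the precision.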

Additional observations from a re-analysis of the deposited data

Results flagged for a closer look

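In the groups of 8 and 9 mice, the highest or lowest mouse of each of the 15 probes was compared with its neighbours by Dixon's ratio, which marks about 5% of groups by chance. In the LGI group, LGI 9 stood apart at 0.83 on Gk probe 2 (next highest mouse -0.15) and at 0.86 on Gk probe 3 (next -0.072), the latter a probe above background on few arrays. In the HGI group, HGI 6 stood apart at 0.33 on Gk probe 2 (next -0.059) and at 0.51 on Gk probe 5 (next -0.060), a probe that was not well above background on any array.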

How the results depend on the processing

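0 probes passed an adjusted p of 0.05 in limma under the settings run, except that array weights gave 1 and leaving out 1 mouse gave 0 to 4, the 4 without LGI 7; none of these was a member probe, since the adjusted p of each member stayed at 0.218 or above. Gpd2 kept its negative sign in all settings run, from -0.54 to -0.25 on probe 1 and from -0.55 to -0.18 on probe 2. Its unadjusted p in limma was under 0.05 in 35 of 36 and 33 of 35 of them. The adjusted p values were 0.218 to 0.999 and 0.255 to 0.999. These settings share most mice, and some, such as Aquantile, left the difference as it was, so the counts are not independent support. The exceptions were the first arrays scanned (unadjusted p 0.084 and 0.104 in limma) and, on probe 2, the authors' deposited values (0.115 in limma). Pck2 and both Aqp7 probes kept their positive sign. Gpd1, Gpd1l, Gk and Aqp3 each changed sign under some settings, and the cause was not tested. With the scanner software's processed signals Gpd1 probe 2 was at -0.0018 and Aqp3 at -0.091, and with Cy5 alone Gpd1 probe 2 was at -0.13 and Gpd1l probe 1 at -0.083. Gk kept its sign in these 2 settings, but its size and error grew. Probe 2 went from 0.052 ± 0.14 (SE) to 0.62 ± 0.49 with processed signals and 0.43 ± 0.45 with Cy5 alone. Probe 1 went from -0.16 ± 0.18 to -0.33 ± 0.57 and -0.29 ± 0.53. In the first arrays scanned, Gpd1 probe 1 was at 0.055, Gpd1l probe 2 at 0.025 and Gk probe 2 at -0.092, and in the later ones Gpd1 probe 2 was at -0.067, Gpd1l probe 1 at -0.0028 and Aqp3 at -0.025. The authors' deposited values gave -0.015 for Gpd1l probe 1 and -0.0040 for Aqp3, and Gk probe 1 was at 0.10 without HGI 9, HGI 10 and LGI 9, a setting chosen after seeing the data. Leaving out 1 mouse moved Gpd1 probe 2 between -0.0038 and 0.085, Gpd1l probe 2 between -0.035 and 0.043, Gk probe 1 between -0.24 and 0.0020, Gk probe 2 between -0.0068 and 0.20, and Aqp3 between -0.032 and 0.053.

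Of the correlations, that of Gpd1 with Gpd1l was 0.093 within LGI, 0.057 in the first arrays and 0.102 with Cy5 alone. Gpd1 with Gk was 0.438 within HGI, 0.159 in the later arrays, 0.183 with Cy5 alone and 0.023 without HGI 9, HGI 10 and LGI 9. Gpd1 with Aqp7 was -0.113 in the later arrays and -0.18 without those 3 mice. Gpd1 with Aqp3 was 0.324 in the later arrays, 0.127 without the 2 farthest mice, 0.0040 with Cy5 alone and 0.161 without those 3 mice, and the Gk probes were at -0.137 in the later arrays. Same-numbered mice of the 2 diets did not deviate together (r of -0.37 to 0.28 over 7 numbers), so the numbers were not taken as pairs. With the replicate number as a block, in the 14 arrays that allow it, Gpd2 was at -0.38 and -0.44 and 0 probes were called, as without the block. A slide block was not run, because no 2 arrays share a recorded slide. Aquantile left the log ratios as they were. The Gk, Gpd1l probe 2 and Aqp3 probes lie near the background, which limits what their log ratios can show.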
